A study of Mus musculus with 14 samples.

Results

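The BCL2 family decides whether a cell under stress lives or dies by apoptosis. This account covers 10 mouse genes of the family, fixed as a list by name: the pro-survival genes Bcl2, Mcl1, Bcl2l1 (BCL-XL) and Bcl2a1b, the effector genes Bax and Bak1, and the BH3-only genes Bcl2l11 (BIM), Bid, Bbc3 (PUMA) and Pmaip1 (NOXA). All 10 were found among the 52550 genes of the count table. RNA was sequenced from 14 libraries of C57BL/6 mouse cells after removal of ribosomal RNA, with donors aged 8 to 20 weeks. There were 4 libraries of wild-type (WT) hematopoietic stem and progenitor cells (HSPCs), enriched from femur and tibia marrow, and 4 of such cells from mice in which Mir139 had been deleted with a Cas9 nickase (Mir139KO). The remaining 6 libraries were WT HSPCs carrying the leukemia fusion gene MLL-AF9 from a retroviral pMSCV vector, with neomycin resistance in replicates 1 to 3 (neo) and puromycin resistance in replicates 4 to 6 (puro). The MLL-AF9 cells had gone through drug selection and at least 2 platings in semi-solid medium. No HSPC library without MLL-AF9 is described as having gone through these steps, so culture and fusion gene cannot be told apart. The enrichment removes lineage-positive cells and does not sort single populations. The labels do not say which samples were lysed at once or expanded first, or whether replicates came from separate mice, so p-values measure the spread between these libraries, which may in part be technical.

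In healthy cells the pro-survival proteins hold the effectors BAX and BAK in check at the outer mitochondrial membrane. BH3-only proteins sense stress and bind the pro-survival proteins, or the effectors directly. Once active, BAX and BAK make pores that release cytochrome c, which starts the caspases. In blood-forming cells MCL1 and BCL-XL are known as the main survival factors, stem cells need MCL1 to persist, and PUMA and NOXA are classical p53 target genes. BCL2 and MCL1 are drug targets in acute myeloid leukemia.

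Mir139 encodes the microRNAs that the knockout mice lack, on chromosome 7 of GRCm38, and their sequences are shown because the seed (bases 2 to 8 from the 5′ end, in capitals) sets which transcripts could pair with them. RefSeq (GRCm38.p6) places miR-139-5p at chr7:101475382-101475403 and miR-139-3p at chr7:101475418-101475439, both on the plus strand.
mmu-miR-139-5p: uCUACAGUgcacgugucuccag
mmu-miR-139-3p: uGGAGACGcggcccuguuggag
The complement of the miR-139-5p seed, ACTGTAG on the transcript strand, occurred in the longest annotated 3′UTR of 3 members: 2 times in Bcl2, 1 time in Mcl1 and 1 time in Bak1. The same 7 letters occurred in 11% of the 20939 3′UTRs searched, which averaged 1478 bases against 5086 for Bcl2, 2353 for Mcl1 and 1121 for Bak1. The miR-139-3p complement, CGTCTCC, was in 3.17% of those 3′UTRs and in no member. The 4 matches are shown with 11 bases on either side, the match in capitals and the transcript strand 5′ to 3′. They are descriptions of letters, not of binding, and lie at chr1:106542486-106542492 (minus strand), chr1:106542074-106542080 (minus strand), chr3:95660944-95660950 (plus strand) and chr17:27020444-27020450 (minus strand).
Bcl2 position 772: cttaagccctgACTGTAGataatcatata
Bcl2 position 1184: agacacttgccACTGTAGagaggagaacg
Mcl1 position 121: agtccagttctACTGTAGcaacatagcaa
Bak1 position 481: tcccaagaccaACTGTAGgagactgcatg

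The libraries held 35016668 to 45877994 counts. Levels are given as CPM, counts scaled to a common library size, after TMM scaling, which also corrects for differences in composition. The Mir139 precursor was listed at 0 in all 14 libraries and its host gene Pde2a at 0 to 2 counts, so the deletion could not be checked in these counts, and a long RNA library does not measure mature microRNAs. For Pde2a, as for Bak1 below, such counts are no sign of absence. The study reports Pde2a expression from RNA sequencing in MLL-AF9 cells and WT HSPCs, without a change between them. The 8 HSPC libraries fell into 2 sets that cut across genotype: the noncoding gene Gm26917 took 16.99 to 21.93% of counts in WT 1 and 2 and Mir139KO 2 and 3 (low-share libraries), and 32.7 to 35.44% in WT 3 and 4 and Mir139KO 1 and 4 (high-share libraries). Of 15056 genes measured in HSPCs, 65.2% did not overlap between the low-share and high-share libraries. Marker sums of several other cell types were lower in MLL-AF9 cells: 9 of 10 erythroid genes were detected in HSPCs and summed to 842 to 1870 CPM there against 0.997 to 2.9 CPM in MLL-AF9 cells, while the 8 B cell genes, of which Ms4a1 was at 0 throughout, summed to 1610 to 6100 CPM against 9.91 to 30.1 CPM. The 7 T and NK cell genes (106 to 217 against 4.13 to 16.3 CPM), the 6 megakaryocyte genes (100 to 539 against 3.81 to 17.5 CPM) and the 6 mast cell, basophil and eosinophil genes (447 to 683 against 5.32 to 22.8 CPM) did not overlap either. Sums overlapped for the 9 neutrophil genes (398 to 12000 CPM in HSPCs and 283 to 4040 CPM in MLL-AF9 cells), the 7 monocyte and macrophage genes (875 to 1840 and 226 to 946 CPM) and the 5 plasma cell genes (324 to 611 and 293 to 484 CPM). The 7 stem and progenitor genes, none of them at 0, summed to 389 to 569 CPM in HSPCs and 50 to 143 CPM in MLL-AF9 cells. The MLL fusion genes, with Hoxa5 at 0 throughout, summed to 34.6 to 89.2 CPM and 626 to 1830 CPM. Their part in the results on the BCL2 family was not tested. In such bulk samples fewer cells of a type and less RNA per cell cannot be told apart.

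Of the 10 members, 8 were measured in every group. Bak1, which encodes an effector, was listed at 0 in all 14 libraries. This is no sign of absence, because 3922 of 21819 protein-coding genes were at 0 in all libraries, among them Rpl13, Eif3m and Ppp2ca, which cells use throughout. The 2407 exon bases of Bak1 (chr17:27019810-27029009, minus strand, GRCm38) share 614 bases, or 25.5%, with Ggnbp1 on the opposite strand. Bcl2a1b, a copy of the A1 survival gene that is used in myeloid cells, had 0 to 2 counts in HSPC libraries and 0 to 10 in MLL-AF9 libraries, and passed no filter. The mouse carries near-identical A1 copies, and 79.2% of the 50-base windows of Bcl2a1b also occur in another gene, so counts may be lost or moved between copies.

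Read per kilobase of exon, the scale on which genes can be set side by side, Mcl1 had the highest mean of the members in each of the 3 groups. In the high-share HSPC libraries Bax (30.9 CPM per kb) and Mcl1 (28.7 CPM per kb) were close, and Bax was the higher in WT 3, WT 4 and Mir139KO 1. In WT HSPCs its level was 45.4 ± 23.6 CPM per kb (SD, n = 4), followed by Bax at 23.3 ± 8.38 and Bid at 20.5 ± 0.838 CPM per kb. Bcl2l1 (9.5 ± 1.29), Bbc3 (5.46 ± 2.64), Bcl2l11 (4.74 ± 1.15) and Bcl2 (3.22 ± 1.83 CPM per kb) came next, and Pmaip1 was last of the 8 at 0.642 ± 0.0642 CPM per kb. The ranges of neighbours in this order overlapped, except between Bid and Bcl2l1 and between Bcl2 and Pmaip1. Mir139KO HSPCs had the same order with the same breaks. In MLL-AF9 cells Mcl1 stood at 55.2 ± 11.5 CPM per kb (SD, n = 6), above the range of every other member, and Bax at 19.4 ± 5.43 CPM per kb. Pmaip1, at 18 ± 4.26 CPM per kb, was next in the order, and its range overlapped those of Bax above it and Bid (13.9 ± 3.22 CPM per kb) below it. With the longest transcript as the length, Pmaip1 was in place 5 in MLL-AF9 cells and in place 8 in WT and Mir139KO HSPCs.

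**Figure D1:**
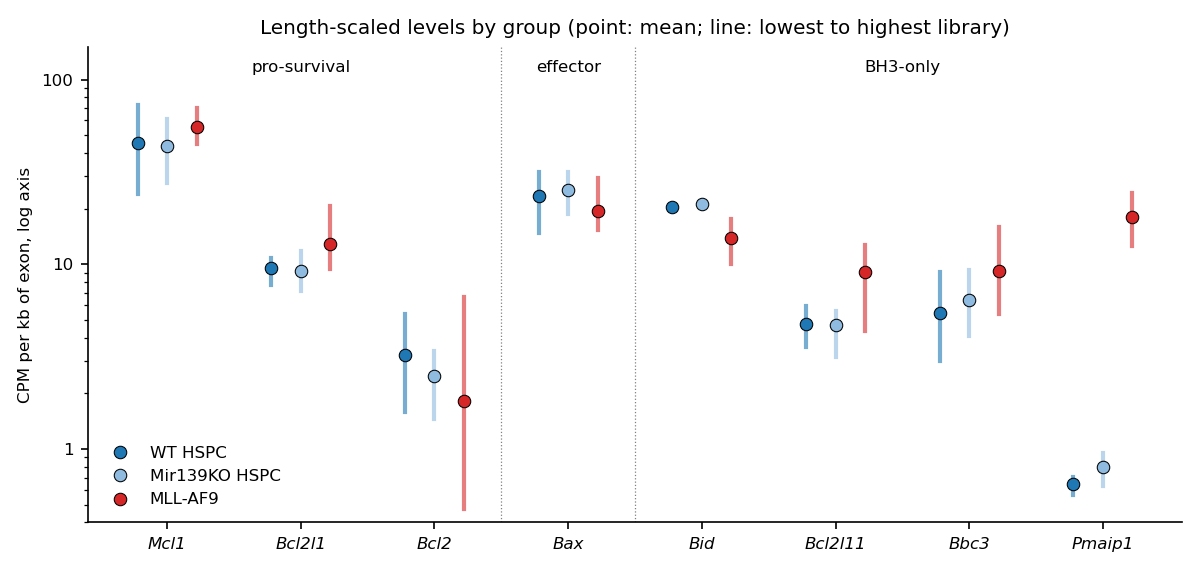
Levels of the 8 measured members in CPM per kb of exon on a log axis, by role and group (points: means; lines: lowest to highest library; n = 4, 4 and 6). Mcl1 has the highest mean in each group, and Pmaip1 lies at 0.642 and 0.803 CPM per kb in the HSPC groups against 18 CPM per kb in MLL-AF9 cells.

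Summed per kilobase, the 4 BH3-only genes came to 30.2 to 34.2 CPM per kb in the 8 HSPC libraries and 45.7 to 66.7 CPM per kb in the 6 MLL-AF9 libraries, which did not overlap. This gap rested on Pmaip1, which was at 0.56 to 0.708 CPM per kb in WT and 0.628 to 0.947 in Mir139KO HSPCs. In MLL-AF9 cells Pmaip1 was at 12.6 to 24.4 CPM per kb. Without Pmaip1 the sums of the BH3-only genes overlapped. Shares of the whole BH3-only sum hold the same difference. Bid, whose product is cut by caspase 8 to link death receptors to mitochondria, made up 59.1 to 69.3% of that sum in HSPCs and 20.3 to 37.5% in MLL-AF9 cells. Pmaip1 made up 1.78 to 2.77% in HSPCs and 27.5 to 41.5% in MLL-AF9 cells. The pro-survival sum ranged from 35.6 to 87.6 CPM per kb in HSPCs and from 56.9 to 83.5 CPM per kb in MLL-AF9 cells, and Mcl1 was 67.3 to 85.2% of it over all 14 libraries. Bcl2 made up 3.59 to 7.6% of the pro-survival sum in HSPCs. It made up 0.677 to 0.835% in neo cultures and 1.61, 10.8 and 1.66% in puro cultures 4, 5 and 6.

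The first comparison asks how the genes differ between MLL-AF9 cells and the WT HSPCs they derive from. In edgeR's quasi-likelihood test with Benjamini-Hochberg adjustment over 17077 genes, 3 of the 8 tested members passed an adjusted p of 0.05. Pmaip1 and Bcl2l11 rose and Bid fell. All 3 are BH3-only genes, as are 4 of the 8 tested members. The share of members that passed has to be read against the background: 62.2% of all genes tested passed, 32.8% higher and 29.4% lower in MLL-AF9 cells. The median log2 fold change was 0.36 over the members and 0.14 over all genes tested. The groups did not overlap for 2 members, Pmaip1 and Bid, against 50.5% of all genes. With GC correction 4 members rose, among them the pro-survival gene Bcl2l1, and 0 fell, with 9967 of all genes called in place of 10630. With total counts in place of TMM scaling the counts were also 4 and 0, and 68.3% of all calls were higher in MLL-AF9 cells in place of 52.7%.

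Pmaip1 (NOXA, which neutralizes MCL1; ENSMUSG00000024521, chr18:66458533-66465565, plus strand) had by far the largest difference among the members. Its level was 1.935, 1.529, 1.838 and 1.709 CPM in WT HSPCs 1 to 4. In MLL-AF9 cultures it was 66.71, 49.26 and 47.69 CPM with the neo vector and 34.32, 57.14 and 39.96 CPM with the puro vector. Every culture lay far above every WT library, and the high-share and low-share HSPC libraries overlapped for this gene. The log2 fold change was 4.80 (SE 0.31, edgeR adjusted p = 5.58e-07), or 27.9-fold. It was called under all 29 alternative settings, with log2 fold changes between 3.40 (GC correction) and 5.38 (total counts only). None of the 2771 50-base windows of Pmaip1 occurs in another annotated gene.

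Bcl2l11 (BIM, which binds all pro-survival proteins and can activate BAX; ENSMUSG00000027381, chr2:128126038-128162547, plus strand) was at 47.45, 44.42, 28.78 and 31.73 CPM in WT HSPCs. The neo cultures had 102.1, 63.59 and 50.28 CPM and the puro cultures 97.56, 34.83 and 88.06 CPM. Culture 5 sat among the WT libraries and the other 5 cultures above them, so the groups overlapped. Means were 72.7 ± 27.3 CPM (SD, n = 6) and 38.1 ± 9.22 CPM (SD, n = 4), and the log2 difference was 0.93 (SE 0.34, edgeR adjusted p = 0.0311). The call held under 18 of 29 alternative settings and was lost, among others, without WT replicate 3 or 4 or without MLL-AF9 replicate 1, 4 or 6 (adjusted p = 0.0547 to 0.0858). Against the low-share WT libraries alone the log2 fold change was 0.62 (adjusted p = 0.258).

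Bid (ENSMUSG00000004446, chr6:120891930-120916853, minus strand) was at 73, 75.48, 68.46 and 73.6 CPM in WT HSPCs, the smallest spread relative to the mean among the 8 measured members. MLL-AF9 cells ranged from 35.55 to 62.18 CPM with a median of 49.2 CPM. All 6 cultures were below all 4 WT libraries. The log2 fold change was -0.57 (SE 0.23, edgeR adjusted p = 0.0474), and 10 of 29 alternative settings kept the call. It was lost without any 1 of the WT libraries or of MLL-AF9 replicates 1, 2, 4 and 6 (adjusted p = 0.0558 to 0.109), with log2 fold changes from -0.62 to -0.48. With total counts only it was -0.003, where the median of all genes moved from 0.14 to 0.69. With a correction for GC content it was -0.18 (adjusted p = 0.493), and with the replicate number as a block it was -0.58 (adjusted p = 0.205). Of its exon bases 17.7% overlap Bcl2l13 on the opposite strand, and no strand setting is stated.

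The other 5 tested members did not pass. Bbc3 (PUMA, which like BIM binds all pro-survival proteins) had 6.387, 8.829, 19.29 and 11.85 CPM in WT HSPCs and 11.4 to 33.93 CPM, with a median of 19 CPM, in MLL-AF9 cells. Its log2 fold change was 0.76 (SE 0.40, adjusted p = 0.119). With the GC correction it was 1.61 and was called (adjusted p = 0.000782). WT 3 and 4, the high-share libraries, overlapped the cultures and WT 1 and 2 lay below them. Without WT replicate 3 the log2 fold change was 1.09 (adjusted p = 0.041).

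Mcl1 (chr3:95658788-95663176, plus strand), whose short-lived protein holds BAK and BIM, had 248.5, 196.3, 82.53 and 92.99 CPM in WT HSPCs and 152 to 241 CPM, median 174 CPM, in MLL-AF9 cells. All 6 cultures lay above the high-share WT 3 and 4 and overlapped with the low-share WT 1 and 2. The log2 fold change was 0.27 (SE 0.34, adjusted p = 0.497). It was -0.29 (adjusted p = 0.368) against low-share and 1.01 (adjusted p = 0.0101) against high-share WT libraries, so its direction turned with the WT libraries used. Bax, the measured effector (chr7:45461697-45466898, minus strand), also turned with the WT libraries used, but the opposite way to Mcl1. Its WT values were 23.2, 27.85, 49.64 and 46.44 CPM and its MLL-AF9 values 24.09 to 45.97 CPM, median 27.4 CPM. With GC correction its log2 fold change was 0.66 (adjusted p = 0.0599). Without it the value was -0.27 (SE 0.30, adjusted p = 0.438) against all WT libraries, 0.21 (adjusted p = 0.569) against low-share and -0.76 (adjusted p = 0.0315) against high-share libraries.

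Bcl2l1 (chr2:152780668-152831728, minus strand), which encodes the long-lived survival factor BCL-XL, had 49.49, 35.39, 45.16 and 44.32 CPM in WT HSPCs and 43.45 to 94.27 CPM, median 54.1 CPM, in MLL-AF9 cells (log2 fold change 0.44, SE 0.27, adjusted p = 0.167). It was called with a correction for GC content (1.07, adjusted p = 0.00272) and with total counts only (1.04, adjusted p = 0.014). The groups overlapped at their edge, and culture 1 stood above the other 5, which were at 43.45 to 56.6 CPM. Bcl2 (chr1:106538178-106714274, minus strand), the founding pro-survival gene and target of venetoclax, had 37.67, 49.13, 14.47 and 16.76 CPM in WT HSPCs. In MLL-AF9 cells it ranged from 4.35 to 61.11 CPM with a median of 8.3 CPM, a 14-fold range that was the widest of the 8 measured members in these cells. The log2 fold change was -0.86 (SE 0.73, adjusted p = 0.323). Culture 5 was the highest of all 14 libraries and the other 5 cultures the lowest. Without culture 5 the log2 fold change was -1.95 and was called (adjusted p = 0.00561). It was also called with the replicate number as a block (-2.21, adjusted p = 0.00376). No WT library is numbered 5 or 6, so that block takes culture 5 out of the difference too and is no separate check.

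**Figure D2:**
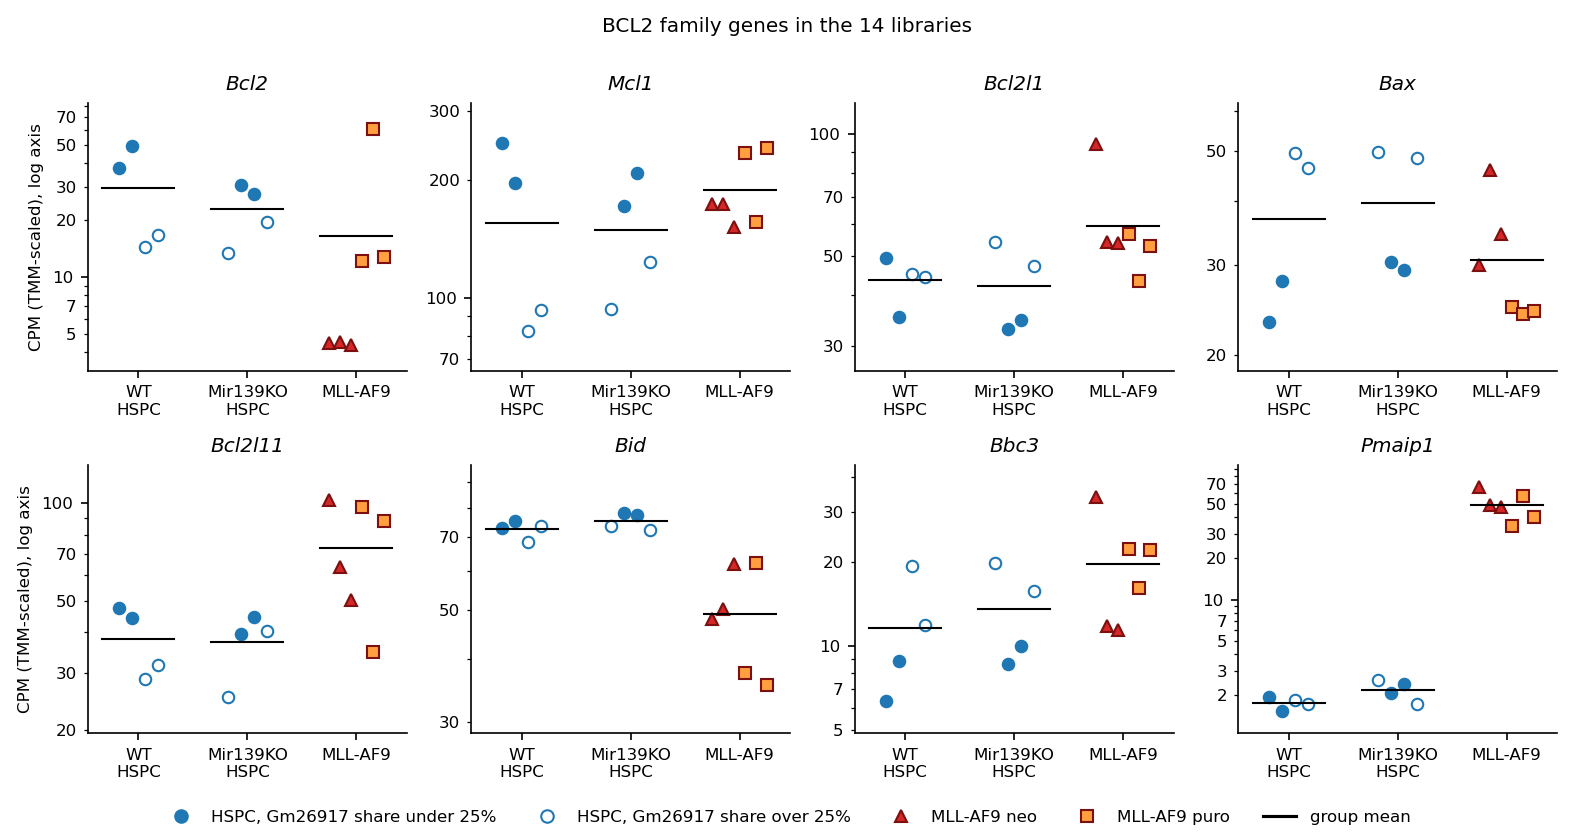
CPM of the 8 measured members in each library on log axes (filled circles: HSPC libraries with under 25% of counts on Gm26917; open circles: over 25%; triangles: neo cultures; squares: puro cultures; bars: group means). Pmaip1 separates MLL-AF9 cells from HSPCs, Mcl1, Bcl2, Bax and Bbc3 separate the filled from the open HSPC circles, and Bcl2 in culture 5 stands at 61.11 CPM.

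Within HSPCs, 4 of the 8 measured members did not overlap between the libraries of low and high Gm26917 share, beside 65.2% of all genes. Mcl1 was at 171.3 to 248.5 CPM in the 4 low-share libraries and 82.53 to 123.6 CPM in the 4 high-share libraries. Bcl2 was at 27.55 to 49.13 and 13.41 to 19.51 CPM. These pro-survival genes were lower in every high-share library, as were 34.3% of genes. Bax, at 23.2 to 30.42 and 46.44 to 49.87 CPM, and Bbc3, at 6.387 to 10.01 and 11.85 to 19.78 CPM, were higher in every high-share library, as were 30.9% of genes. The pro-survival sum was therefore 1.91 to 2.9 times the BH3-only sum in low-share and 1.09 to 1.46 times in high-share libraries, with MLL-AF9 cells at 1.08 to 1.82 times. Bcl2l1, Bcl2l11, Bid and Pmaip1 overlapped between these libraries. The GC content of the longest transcript was 65.2% for Bbc3 and 63.5% for Bax, the highest of the members. It was 48.7% for Mcl1 and 46.3% for Bcl2, and 42.1 to 55.9% for the members that overlapped. The part of GC content in this split was not tested. What the share reflects was not tested, and the labels give no batch.

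The second comparison asks whether deletion of Mir139 alone moved the family. No member passed in edgeR's test of 15056 genes between Mir139KO and WT HSPCs, where 0% of all genes passed and 86 had an unadjusted p under 0.05. No member had an unadjusted p under 0.05, and DESeq2 and limma-voom called none either. The genotypes overlapped for all 8 measured members, and did not overlap for 0.491% of all genes. The largest positive difference was that of Pmaip1, with 2.586, 2.058, 2.418 and 1.715 CPM in Mir139KO HSPCs and a log2 fold change of 0.31 (SE 0.25, edgeR unadjusted p = 0.244, adjusted p = 1). The tests leave room for sizeable changes, as the SE ran from 0.18 for Bid to 0.45 for Bcl2.

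The members with a miR-139-5p seed match did not pass in these HSPCs. Bcl2, with 2 matches, was at 13.41, 30.82, 27.55 and 19.51 CPM in Mir139KO HSPCs, and its log2 fold change of -0.39 (SE 0.45) was negative. Mcl1, with 1 match, was at 93.79, 171.3, 208.2 and 123.6 CPM with a log2 fold change of -0.07 (SE 0.41). For both genes the spread within each genotype followed the Gm26917 share, and with the share entered as a covariate the values were -0.27 for Bcl2 and 0.03 for Mcl1 (adjusted p = 0.995 and 0.997). Bak1, with 1 match, could not be measured. Apart from Pmaip1, the members without a match that were measured had log2 fold changes between -0.06 for Bcl2l1 and 0.21 for Bbc3.

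Against Mir139KO HSPCs, which are a separate control group while the MLL-AF9 libraries are the same, 3 members passed of 8, beside 69.3% of 16953 genes (37.3% higher and 31.9% lower). Pmaip1 was 2.19 ± 0.388 CPM (SD, n = 4) in Mir139KO HSPCs and 49.2 ± 11.7 CPM (SD, n = 6) in MLL-AF9 cells (log2 fold change 4.47, SE 0.28, edgeR adjusted p = 2.62e-07). Bcl2l11 was 25.22, 39.45, 44.69 and 40.41 CPM in Mir139KO HSPCs (log2 fold change 0.95, SE 0.32, adjusted p = 0.0184), and without Mir139KO replicate 1 the value was 0.77 (adjusted p = 0.0769). Bid was 73.71, 78.15, 77.4 and 72.25 CPM (log2 fold change -0.63, SE 0.21, adjusted p = 0.0168) and was 0.06 with total counts only, a scaling under which 71.4% of all calls were higher in MLL-AF9 cells in place of 53.9%. Both Pmaip1 and Bid were without overlap, as were 58% of all genes. The other 5 members had log2 fold changes from -0.48 for Bcl2 (SE 0.70) to 0.52 for Bbc3 (SE 0.36), with adjusted p between 0.114 and 0.554. With GC correction Bbc3 (1.48, adjusted p = 0.000496) and Bcl2l1 (1.26, adjusted p = 0.000202) were called, Bid was not (-0.20, adjusted p = 0.415), and Bax turned to 0.64 (adjusted p = 0.0561). Pmaip1 stayed called at a smaller log2 fold change of 3.065 (adjusted p = 9.18e-06). With total counts only Bbc3 (1.35), Bcl2l1 (1.26) and Mcl1 (0.96, adjusted p = 0.0365) were called. Without culture 5 Bcl2 was called here too (-1.59, adjusted p = 0.00509). With the replicate number as a block Bcl2 (-1.95, adjusted p = 0.00321) and Bcl2l1 (0.59, adjusted p = 0.0432) were called as well. No Mir139KO library is numbered 5 or 6, so that block also takes cultures 5 and 6 out of the difference.

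**Figure D3:**
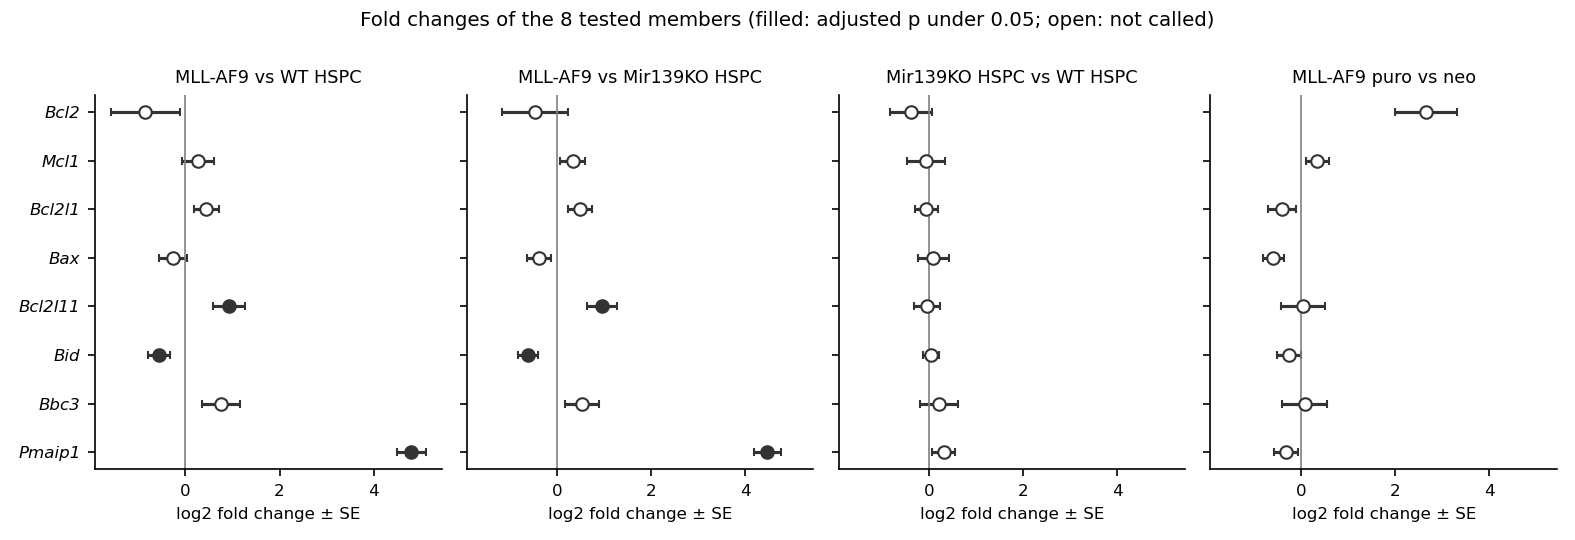
Log2 fold changes with SE of the 8 tested members in 4 comparisons on a shared axis (filled: adjusted p under 0.05). Pmaip1 at 4.80 and 4.47 stands apart in both comparisons of MLL-AF9 cells, no member is filled between Mir139KO and WT HSPCs, and Bcl2 is at 2.65 between puro and neo cultures without passing.

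Between the puro and neo cultures no member passed in edgeR's test of 16503 genes, where 0.873% of all genes did (0.564% higher and 0.309% lower in puro cultures). Of the members, 2 had an unadjusted p under 0.05, and these 2 did not overlap between the vectors. Of all genes, 19.9% did not overlap. Bcl2 was at 4.454, 4.495 and 4.35 CPM in neo cultures 1 to 3, below every other library. In puro cultures 4 to 6 it was at 12.11, 61.11 and 12.7 CPM. The log2 fold change was 2.65 (SE 0.66, adjusted p = 0.142). DESeq2 called it (2.64, adjusted p = 0.00153), as did edgeR with all 14 libraries in the fit (2.69, adjusted p = 0.025) and without culture 5 (1.52, adjusted p = 0.0248). Against WT HSPCs the neo cultures alone had a log2 fold change of Bcl2 of -2.71 (adjusted p = 0.00156) and the puro cultures alone -0.04 (adjusted p = 0.958). Bax was at 29.94, 45.97 and 34.47 CPM in neo and 24.79, 24.09 and 24.38 CPM in puro cultures (log2 fold change -0.59, SE 0.23, adjusted p = 0.321). The vector, the drug and the set of cultures cannot be told apart here.

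Puro cultures 4 and 6 were alike and differed from puro culture 5 at several members. Their log2 CPM over all measured genes correlated at r = 0.995, the highest of any pair of a group, and their chi-square per degree of freedom was the lowest of any pair of a group (9.12, next 20.9). The labels give them as separate samples and they were kept so, but whether they are separate cultures was not tested. With both summed as 1 sample, 1 member was called against WT HSPCs in place of 3, and Bcl2l11 (0.87, adjusted p = 0.0558) and Bid (-0.48, adjusted p = 0.106) were not. Over all genes 10030 were called in place of 10630. Mcl1 was at 234.6 and 241 CPM in cultures 4 and 6 and at 156.3 CPM in culture 5. Bcl2l11 was at 97.56 and 88.06 CPM against 34.83 CPM, and Bid at 37.6 and 35.55 CPM against 62.18 CPM. The neutrophil markers of cultures 4 and 6 summed to 2000 CPM each and those of culture 5 to 283 CPM, the lowest of all libraries. Their part in the differences was not tested.

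The A1 locus split the cultures in the same way. In the cultures nearly all its counts were on the copy Bcl2a1a: 133, 241 and 408 counts in neo cultures 1 to 3, and 3, 155 and 4 counts in puro cultures 4 to 6. The HSPC libraries had 1 to 11 counts on Bcl2a1a, and Bcl2a1d had 0 counts in every library. The 4 copies summed came to 0.03715 to 0.2586 CPM in HSPCs and, in cultures 1 to 6, 2.614, 4.909, 7.576, 0.06036, 3.09 and 0.07536 CPM, so that cultures 4 and 6 lay at or near the limit of 3 counts (0.0604 and 0.0565 CPM). Summed as 1 gene, the copies passed the filter on low counts only through the cultures where they are high, so no fold or test is given.

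Genes of the wider apoptosis pathway, in 6 lists of 50 genes in all, were read beside the members. Between MLL-AF9 cells and WT HSPCs, 30 of the 45 tested passed, 21 higher and 9 lower, beside the 62.2% of all genes (32.8% higher and 29.4% lower). Of the 21, 3 (Bcl2a1a, Bcl2l10 and Eda2r) were too low in HSPCs to be tested between the HSPC groups and entered through the MLL-AF9 cells. Against the low-share WT libraries alone 22 of the wider genes passed, with 7665 of all genes called. Against the high-share WT libraries alone 29 passed, with 11452 of all genes called. Between Mir139KO and WT HSPCs 0 of 42 passed in edgeR, DESeq2 and limma-voom, and between puro and neo cultures 0 of 45 passed in edgeR and 5 in DESeq2. Over all genes 0% and 0.873% passed in edgeR in these comparisons, and DESeq2 called 1326 genes between the vectors. Against Mir139KO HSPCs 31 of 45 passed, 22 higher and 9 lower, beside 69.3% of all genes (37.3% higher and 31.9% lower).

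The list of p53 and its target genes held 10 of 13 that rose in MLL-AF9 cells and 1 that fell, beside 32.8% and 29.4% of all genes tested. The 10 include Eda2r, which entered the test through the MLL-AF9 cells. The members, among them Pmaip1 and Bbc3, named above as p53 targets, were not on the list. Of these 2 genes Pmaip1 rose and Bbc3 did not pass (log2 fold change 0.76, edgeR adjusted p = 0.119). Which other members p53 controls was not examined. Among those, Bcl2l11 rose (0.93), Bid fell (-0.57) and Bax did not pass (-0.27). Fas, a death receptor, rose by a log2 fold change of 3.27 (SE 0.58, edgeR adjusted p = 0.000549), from 0.4345 to 3.599 CPM in WT HSPCs to 7.959 to 23.2 CPM in MLL-AF9 cells. Cdkn1a (p21, a cell cycle brake) rose by 2.98 (SE 0.40, adjusted p = 8.88e-05), from 14.35 to 25.57 CPM to 73.92 to 274.7 CPM, and Trp53inp1 by 2.90 (SE 0.53, adjusted p = 0.000633). The gene that fell was Trp53, which encodes p53. Its WT values split by Gm26917 share, with 180.3, 200.4, 490.6 and 455.5 CPM in WT HSPCs and 37.78 to 94.98 CPM in MLL-AF9 cells, without overlap (log2 fold change -2.35, SE 0.38, adjusted p = 0.000273). Phlda3 (0.88) and Aen (-0.10), also p53 targets, did not pass. Messenger RNA of Trp53 does not measure p53 protein.

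Among the other effector and BH3-only genes 3 of 7 rose and 1 fell, beside 32.8% and 29.4% of all genes tested. Bnip3 (2.89, SE 0.46) and Bnip3l (1.19, SE 0.48), better known for mitophagy, and Bcl2l14 (2.13, SE 0.45) rose. Bad, a BH3-only gene controlled by survival kinases, fell (-1.72, SE 0.30, edgeR adjusted p = 0.000452), from 41.6 ± 18 to 12.6 ± 2.07 CPM (SD, n = 4 and 6). Bmf (1.28, SE 0.68) and Bik (0.61, SE 0.55) did not pass. Of the other pro-survival genes, Bcl2a1a and Bcl2l10 were called higher in MLL-AF9 cells, but both entered the test only through those cultures, which fixes the direction. Bcl2l10 had 0 to 1 counts in WT HSPCs and 0 to 28 counts in MLL-AF9 cells, and the counts of Bcl2a1a are given above. The gene for BCL-W, Bcl2l2, averaged 0.0381 CPM in WT HSPCs and 0.0584 CPM in MLL-AF9 cells and was not tested. It shares 594 exon bases, or 13.3%, with Gm20521 on the same strand, so counts may be lost and the low level is no sign of absence.

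Of 8 apoptosome and caspase genes 2 rose and 1 fell, beside 32.8% and 29.4% of all genes tested. Casp8, the caspase that cuts BID, rose from 54 ± 16.8 to 189 ± 33.6 CPM (SD, n = 4 and 6). Its log2 fold change was 1.80 (SE 0.28, edgeR adjusted p = 0.00024). Apaf1, the scaffold of the apoptosome, rose from 78.4 ± 51.2 to 167 ± 13.4 CPM (1.09, SE 0.39, adjusted p = 0.0297). Casp2 fell (-1.02, SE 0.24), and Cycs, which encodes cytochrome c (-0.71, SE 0.39), did not pass. Of 7 genes for inhibitors of apoptosis and their antagonists 3 rose and 3 fell, beside the same shares of all genes. Xiap (2.09, SE 0.44), Birc6 (1.54, SE 0.44) and Birc3 (1.05, SE 0.41), which restrain caspases or death receptor signalling, rose. Birc5 (survivin, used in mitosis; -1.80, SE 0.53) fell, as did the antagonists of the inhibitors Htra2 (-1.46, SE 0.35) and Diablo (-0.69, SE 0.26), and Birc2 (0.94, SE 0.45) did not pass.

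Of the 8 tested genes that control MCL1 and BIM or partner BAX and BAK, 1 rose and 3 fell. The shares over all genes tested were 32.8% and 29.4%. Usp9x, a deubiquitinase that keeps MCL1 stable, rose (2.37, SE 0.42, edgeR adjusted p = 0.000525), from 44.2 ± 28.5 to 229 ± 37.6 CPM (SD, n = 4 and 6). Bag6 (-1.64, SE 0.32), Dynll1 (-1.35, SE 0.35), whose product tethers BIM to the dynein motor, and Vdac1 (-1.26, SE 0.29), a channel of the outer mitochondrial membrane, fell. Huwe1, a ligase that marks MCL1 for decay (0.49, SE 0.33), and Foxo3, a known activator of the BIM gene (-0.02, SE 0.31), did not pass. Fbxw7, another MCL1 ligase, was listed at 0 in all libraries like Bak1.

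**Figure D4:**
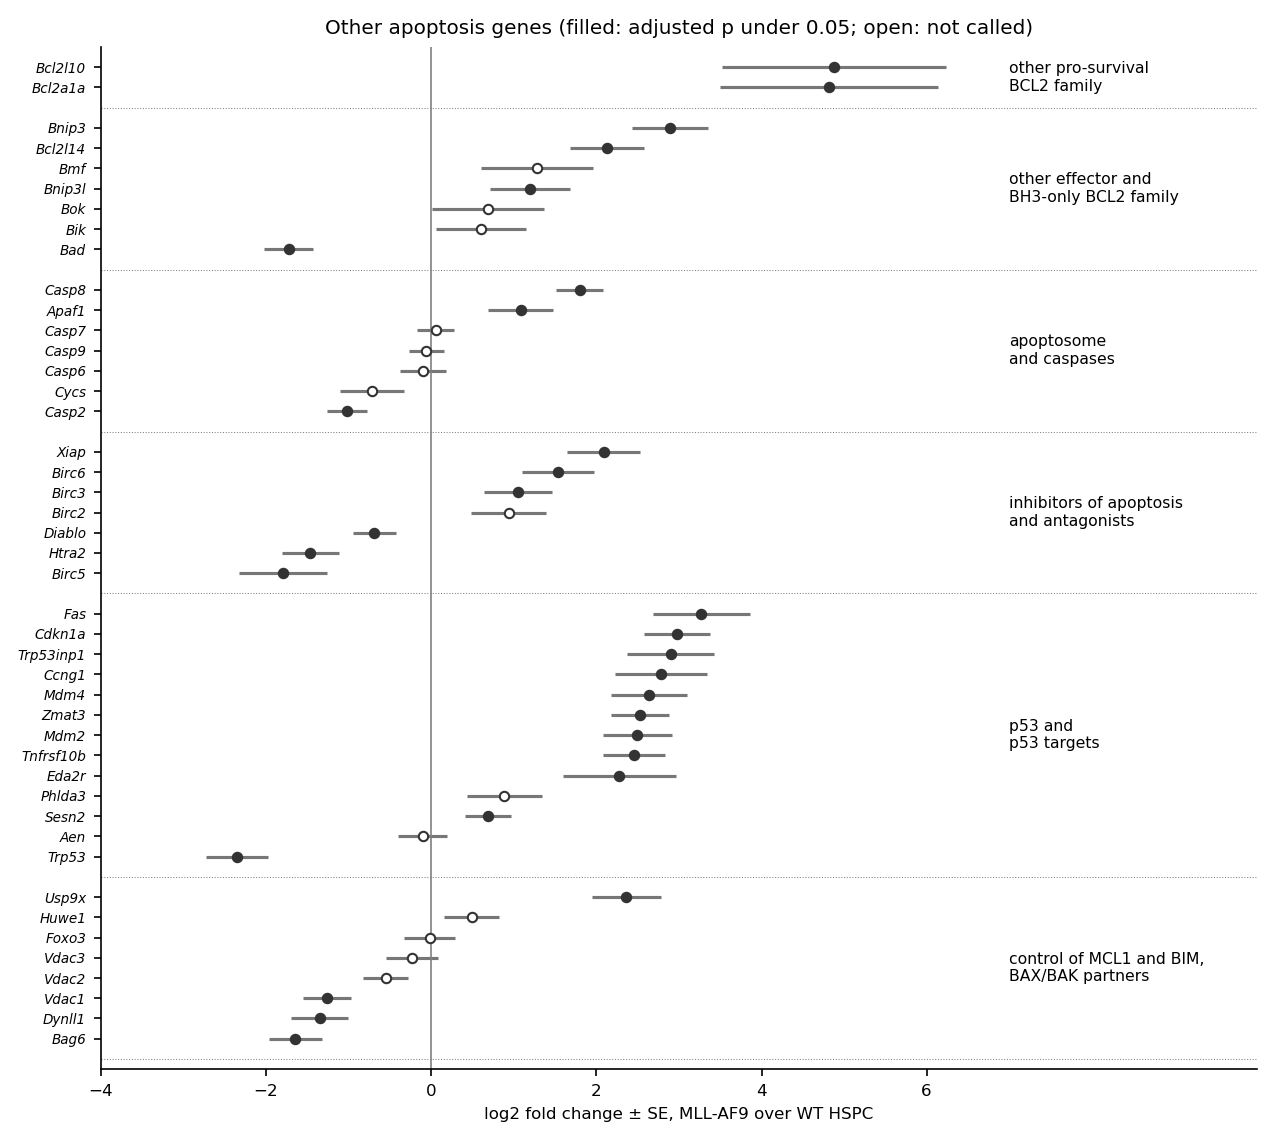
Log2 fold changes with SE of the tested genes of the 6 wider lists, less 1 that did not pass and is not shown, MLL-AF9 cells over WT HSPCs (filled: adjusted p under 0.05, 30 genes). The p53 list leans to higher values, with 10 filled genes above 0 and Trp53 at -2.35.

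The genes most like each member over the 14 libraries were found by Pearson's r of log2 CPM among the 8536 genes whose log2 CPM averaged 3 or more. These are descriptions, and the libraries share the differences between groups and between Gm26917 shares. Pmaip1 was closest to Lipg and Laptm4b (r = 0.988 each), Bid to Cdca7 (r = 0.979) and Sept6 (r = 0.978), and Mcl1 to Donson (r = 0.982) and Mbd2 (r = 0.981). Bax was closest to Angptl4 (r = 0.964), Bcl2l11 to Scrn3 (r = 0.958), Bbc3 to Cep170b (r = 0.941), Bcl2 to Slco3a1 (r = 0.934) and Bcl2l1 to Dgat1 (r = 0.914).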

How the data were processed

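The deposited values are raw counts per gene. Per the labels and the study's methods, the authors mapped reads to GRCm38 with STAR 2.5.3e, counted them with featureCounts 1.6.0 on a GENCODE annotation, and tested with DESeq2 1.22.2; the submitters' processing notes name FastQC 0.11.8 and MultiQC too. A strand setting is not given in the sources used here. A second table held the same numbers for the 14 libraries and 10 columns of another series, which were not used.

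Here each comparison was fitted on its own 2 groups with edgeR 4.0.16 (R 4.3.3, TMM factors, robust quasi-likelihood F test), over genes with at least 10 counts in as many libraries as the smaller group. A gene was called where its p, adjusted by Benjamini and Hochberg, was under 0.05; the SE is the absolute log2 fold change over the square root of F. Alternatives used DESeq2 1.42.0, limma-voom (limma 3.58.1), other scalings and filters, GC correction, a replicate block, subsets of libraries and libraries left out. Total counts were 35016668 to 45877994 per library, and 3 counts, taken as the floor, came to 0.0544 to 0.129 CPM. Floors cover counting error only. CPM used TMM factors over all 14 libraries, with a prior count of 2 on the log2 scale. Coordinates, exon lengths and 3′UTRs are from GENCODE M21 on GRCm38, which placed 52403 of 52550 genes. Scripts were tested on simulated counts.

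The members, gene lists, named genes and tests were chosen with earlier results of these data known. Named were all members, in each wider list up to 3 of the called genes with the largest rise, 3 with the largest fall and the 2 uncalled genes with the highest level, and the 3 genes most like each member. A gene of the wider lists that the rule names is not reported here.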

Additional observations from a re-analysis of the deposited data

Results flagged for a closer look

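Among 24 sets of values (8 measured members in WT HSPCs, Mir139KO HSPCs and MLL-AF9 cells), 2 held a library set apart from the rest of its group by a gap larger than the 95% limit of Dixon's gap test, which chance alone exceeds in about 1 of 20 sets. Bcl2 in MLL-AF9 culture 5 (puro) was at 61.11 CPM with the next culture at 12.7 CPM, and the gap took 0.853 of the range of the 6 cultures. The same culture had the lowest Bcl2l11 (34.83 CPM) and neutrophil marker sum (283 CPM) of the 6. Bcl2l1 in MLL-AF9 culture 1 (neo) was at 94.27 CPM with the next at 56.6 CPM, and the gap took 0.741 of the range. That culture also had the highest Pmaip1 (66.71 CPM), Bcl2l11 (102.1 CPM) and Bbc3 (33.93 CPM) of the 6.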

How the results depend on the processing

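Pmaip1 kept its direction and call in both comparisons of MLL-AF9 cells under all 29 alternatives. The count of members called against WT HSPCs, 3 as reported, was 1 with low-share HSPC libraries only, with puro cultures only, with cultures 4 and 6 summed, at an adjusted p under 0.01 and with a log2 fold change of 1 or more in size required. It was 5 with high-share libraries only, and leaving out each library in turn gave 1 to 4, with 1 without WT replicate 4 or MLL-AF9 replicate 1, 4 or 6. Calls over all genes moved as well, from 10630 as reported to 7665 with low-share and 11452 with high-share libraries only. They were 9016 with puro cultures only, 10030 with cultures 4 and 6 summed, 7930 at an adjusted p under 0.01 and 9679 at the fold limit. Leaving out each library in turn gave 9361 to 10722. Against Mir139KO HSPCs the 3 members became 5 with total counts only, 1 at the stricter adjusted p and 1 at the fold limit. Over all genes the calls there were 11741 as reported and 11223, 9555 and 10401 in these settings. Between vectors the 0 members became 1 (Bcl2) with DESeq2 and with all 14 libraries in the fit, and 0 to 1 with each library left out; the wider genes went from 0 to 5 with DESeq2 and to 0 to 3 with each library left out, the highest without culture 5. Over all genes that comparison called 144 as reported, 1326 with DESeq2, 761 with all 14 libraries, 221 with no filter, 268 with GC correction and replicate block, 5 with cultures 4 and 6 summed, 13 at the stricter adjusted p, and 0 to 990 with each library left out. Same-numbered libraries did not deviate together throughout (r from -0.566 to 0.626), so the numbers were not taken as pairs. With the replicate block the members called were 3 against WT HSPCs, where Bcl2 (-2.21) was gained and Bid lost, 5 against Mir139KO HSPCs and 0 in the other comparisons, and with GC correction and replicate block together 6 against either HSPC group. Against HSPCs these block fits take MLL-AF9 cultures 5 and 6 out of the difference, as no HSPC library bears those numbers. Over all genes they called 9300 and 8746 against WT HSPCs and 11455 and 9914 against Mir139KO HSPCs. Bax turned to 0.753 against WT and 0.736 against Mir139KO HSPCs with GC correction and replicate block, and Bid to 0.057 against Mir139KO HSPCs with total counts only, where the median of all genes was 0.843 in place of 0.156. The cause of these shifts was not tested. The counts of wider genes against either HSPC group stayed within 1.5 times the reported count. Counts were too few to test Bcl2a1b, and Bak1 could not be measured; the cause was not tested.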
